A study of Mus musculus with 12 samples.

Results

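Eosinophil granule genes are the genes for the proteins stored in the large granules of the eosinophil, here taken with the receptor chain that marks the lineage. The 7 genes described are Epx, Prg2, Prg3, Ear1, Ear2, Ear6 and Il5ra, out of 53465 genes in the deposited table. They were matched by symbol, and they were chosen from results of these same 12 libraries, with their levels in Tespa1-/- cells after 5-FU known. For that reason every level, fold change and overlap of these 7 genes is a description and carries no p-value.

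The libraries are RNA-seq of LSKs (Lin- Sca-1+ c-Kit+ cells, the bone marrow fraction that holds hematopoietic stem cells and multipotent progenitors). The 4 groups are untreated Tespa1+/+, untreated Tespa1-/-, Tespa1+/+ at day 9 after 5-FU and Tespa1-/- at day 9 after 5-FU, with 3 libraries each. 5-FU (5-fluorouracil) is a cytotoxic drug that kills cycling progenitors and was given once, by intraperitoneal injection, at 150 mg/kg. Mice were male, 8 to 10 weeks old. Tespa1-/- mice were of the B6.129S-Tespa1tm1Smoc line, backcrossed to C57BL/6, in which all cells carry the deletion, and littermates served as Tespa1+/+ controls. LSKs were sorted after depletion of mature cells, with a lineage cocktail against CD3e, CD11b, Gr-1, B220 and Ter-119, none of which is specific to eosinophils. Whether each library is a separate mouse or a pool is not stated in the labels, so p-values below measure the spread between these libraries.

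Eosinophils arise in the bone marrow from granulocyte progenitors under GATA1, C/EBP factors and interleukin-5. Their specific granules have a crystalline core of major basic protein and a matrix of eosinophil peroxidase and ribonucleases, and mRNA for these proteins peaks while the granules are being filled, in eosinophil progenitors and promyelocytes rather than in mature cells. LSKs lie upstream of this commitment.

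Library totals ran from 22118154 to 28275079 counts, and a gene was taken as detectable above 3 counts in a library. Without treatment, Tespa1+/+ cells had 46.5 ± 3.41 CPM of Tespa1 itself (CPM is the count scaled to library depth with TMM factors) and Tespa1-/- cells had 34.8 ± 0.241. After 5-FU the level was 53.2 ± 5.38 CPM for Tespa1+/+ and 19.3 ± 1.82 for Tespa1-/- cells (mean ± SD, n = 3 in each). Counts on Tespa1 were thus lower in both knockout groups without reaching 0, and which exons the allele lacks is not given in the sources used here. The untreated Tespa1-/- libraries had a count on 27219 to 29523 genes, more than the 21141 to 24745 genes of the other 9 libraries.

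The 7 genes lie on 4 chromosomes (GRCm38). Epx (ENSMUSG00000052234, chromosome 11, 87864000 to 87875536, minus strand) has 13 exons and lies 59.6 kb from Mpo, the myeloperoxidase gene of neutrophils, with Lpo between them. Prg2 (ENSMUSG00000027073, chromosome 2, 84980461 to 84983632, plus strand) and Prg3 (ENSMUSG00000027072, chromosome 2, 84988215 to 84993886, plus strand) are neighbours 4.58 kb apart. Ear1 (ENSMUSG00000072601, chromosome 14, 43818765 to 43875517, minus strand), Ear2 (ENSMUSG00000072596, chromosome 14, 44102654 to 44103534, plus strand) and Ear6 (ENSMUSG00000062148, chromosome 14, 51853699 to 51854643, plus strand) are ribonuclease genes of 1 family. Ear1 and Ear2 lie 227 kb apart, and Ear6 lies 7750 kb beyond Ear2. Il5ra (ENSMUSG00000005364) spans 106710357 to 106749037 on the minus strand of chromosome 6.

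The bases just before the start of 6 of these genes were taken from RefSeq (GRCm38.p6), because genes that were high in the same 3 libraries can be compared in their promoters. In each sequence, capitals mark matches, on either strand, to the GATA factor motif GATAA, the C/EBP motif TTGCNNAA, the CCAAT box, the ETS factor motif GAGGAA or the TATA box motif TATAAA, and no match overlapped another. The windows are chr11:87875537-87875786 for Epx (minus strand), chr2:84987965-84988214 for Prg3, chr14:43819640-43819889 for Ear1 (minus strand), chr14:44102404-44102653 for Ear2, chr14:51853518-51853698 for Ear6 and chr6:106749038-106749287 for Il5ra (minus strand). The Ear1 window lies inside an intron of a longer Ear1 transcript in GENCODE, and the Ear6 window has 181 bases, as it stops at the start of the GENCODE gene, where the others have 250.
Epx: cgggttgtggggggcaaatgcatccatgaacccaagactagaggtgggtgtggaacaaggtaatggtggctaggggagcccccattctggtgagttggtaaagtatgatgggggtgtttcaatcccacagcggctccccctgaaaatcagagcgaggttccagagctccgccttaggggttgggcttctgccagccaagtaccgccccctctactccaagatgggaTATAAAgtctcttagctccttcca
Prg3: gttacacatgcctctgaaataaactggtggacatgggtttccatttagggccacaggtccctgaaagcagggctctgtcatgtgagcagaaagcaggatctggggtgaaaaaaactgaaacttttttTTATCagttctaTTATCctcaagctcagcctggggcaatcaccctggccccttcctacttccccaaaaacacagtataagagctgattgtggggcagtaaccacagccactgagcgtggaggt
Il5ra: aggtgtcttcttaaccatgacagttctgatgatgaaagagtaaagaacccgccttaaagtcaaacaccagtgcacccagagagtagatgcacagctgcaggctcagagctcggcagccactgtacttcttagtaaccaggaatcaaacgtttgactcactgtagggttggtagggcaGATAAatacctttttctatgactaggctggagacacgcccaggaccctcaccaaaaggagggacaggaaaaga
Ear1: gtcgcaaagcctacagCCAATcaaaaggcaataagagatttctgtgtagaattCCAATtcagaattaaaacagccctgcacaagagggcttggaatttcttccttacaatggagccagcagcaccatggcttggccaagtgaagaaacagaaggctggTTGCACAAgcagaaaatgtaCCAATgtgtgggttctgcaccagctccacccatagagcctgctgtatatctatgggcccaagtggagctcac
Ear2: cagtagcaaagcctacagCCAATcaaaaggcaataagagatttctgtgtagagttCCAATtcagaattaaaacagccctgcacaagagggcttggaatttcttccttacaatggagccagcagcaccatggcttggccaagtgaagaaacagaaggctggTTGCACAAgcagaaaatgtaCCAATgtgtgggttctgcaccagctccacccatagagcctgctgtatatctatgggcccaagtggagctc
Ear6: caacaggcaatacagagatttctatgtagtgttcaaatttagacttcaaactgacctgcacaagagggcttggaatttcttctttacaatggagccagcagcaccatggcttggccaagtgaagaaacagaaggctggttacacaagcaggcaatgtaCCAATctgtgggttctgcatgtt

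The Ear1 and Ear2 windows were nearly the same sequence, with 97.6% identity over an alignment of 252 columns of the full 250 bases. Ear6 shared 78.2% with Ear1 and 77.7% with Ear2, while the windows of Epx, Prg3 and Il5ra shared 47.4% to 51% with any other member, beside 45.3% to 51.4% for the 6 windows against that of Mpo. GATAA was found 2 times in Prg3, at 123 and 111 bases before the start, and 1 time in Il5ra at 73 bases, against 22.6% of all 32851 promoters with a match in 250 bases. The C/EBP motif was found in Ear1 and Ear2 at 92 and 90 bases before the start, against 9.56% of all promoters. CCAAT was found 3 times each in Ear1 and Ear2 and 1 time in the shorter Ear6 window, against 33.9% of promoters at 250 bases. The Epx window held TATAAA 24 bases before the start (12.4% of promoters), and no window held GAGGAA (23.3% of promoters). Such matches describe the letters of these windows and say nothing about binding.

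Because some Ear genes share long stretches of sequence, reads may be split or shared between them. Of the 50-base stretches of Ear1 transcripts (GENCODE M21), 57.4% also occur in another gene, 41.4% in the pseudogene Ear-ps9 and 23.8% in Ear2. For Ear2 the share was 41.5%, led by Ear10 with 26%. Ear6 shared 0.954% of its 50-base stretches, Il5ra 0.899%, and Epx, Prg2 and Prg3 shared 0. At 100 bases the shares fell to 23.9% for Ear1 and 13.9% for Ear2, so values of these 2 genes are uncertain singly, while Ear6 shared 0 at that length. Ear-ps9 overlaps the start of the annotated Ear1 gene on the same strand, so part of the Ear1 share may be the same bases. How the counting treated reads with more than 1 match is not given in the sources used here.

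At day 9 after 5-FU, every granule gene was far higher in Tespa1-/- than in Tespa1+/+ LSKs. Epx, which encodes the peroxidase of the granule matrix, had 5094, 5472 and 4547 counts in the 3 Tespa1-/- libraries and 4, 1 and 0 counts in the 3 Tespa1+/+ libraries. Prg2, which encodes major basic protein, the main protein of the granule core, had 10631, 9942 and 8855 counts against 14, 0 and 0. Prg3, its homologue, had 522, 413 and 396 counts against 0 in each Tespa1+/+ library. The groups did not overlap for any of the 3, and the Tespa1-/- libraries stood close together. In bulk RNA, more cells of a type and more RNA per cell cannot be told apart.

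In CPM, Epx stood at 201 ± 13.4 in Tespa1-/- and 0.0648 ± 0.0812 in Tespa1+/+ cells after 5-FU (SD, n = 3), a log2 fold change of 11.47 (SE 0.25 in the edgeR fit). The ratio of summed counts was 3041, with a 95% counting interval of 1303 to 9367 that is wide because the Tespa1+/+ libraries held 5 counts in all. Prg2 stood at 391 ± 7.61 against 0.182 ± 0.315 CPM, a log2 fold change of 11.01 (SE 0.42) and a count ratio of 2115 (1260 to 3869). Prg3 stood at 17.6 ± 1.55 CPM, at least 142-fold above the limit of 3 counts per library. All 14 Prg2 counts in Tespa1+/+ came from replicate 1. Leaving that library out left Epx with 1 count and Prg2 with 0 counts in the control group, too few for a fold, while leaving out replicate 2 or 3 gave 10.42 or 10.46 for Prg2.

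The ribonuclease genes followed the same order of groups. Ear6, an eosinophil-associated ribonuclease of the RNase A family, had 687, 768 and 577 counts in Tespa1-/- libraries after 5-FU and 0 in each Tespa1+/+ library. Ear1 had 458, 297 and 410 counts and Ear2 had 401, 544 and 441, again against 0 in each Tespa1+/+ library. These levels, 15.6 ± 3.64 CPM for Ear1, 18.5 ± 3.42 for Ear2 and 27.0 ± 2.45 for Ear6, were at least 126-fold, 149.6-fold and 218-fold above the limit. Counts on all Ear genes of the table summed to 4803 in Tespa1-/- and 2 in Tespa1+/+ libraries, a ratio of 2416 (669 to 19957). Ear1, Ear2 and Ear6 made up 94.4% to 96.6% of the Ear counts in each Tespa1-/- library. The remainder lay mainly on Ear-ps9, which overlaps the 5′ end of the annotated Ear1 gene (53, 44 and 40 counts), Ear-ps2 (36, 11 and 10) and Ear10 (3, 2 and 21).

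Il5ra, the alpha chain of the interleukin-5 receptor, which controls eosinophil output, did not share this scale. It had 15, 58 and 13 counts in Tespa1-/- libraries after 5-FU and 3, 11 and 10 in Tespa1+/+ libraries. The level was 1.13 ± 0.970 against 0.318 ± 0.174 CPM, a log2 fold change of 1.81 (SE 0.85). The count ratio was 3.61, with a counting interval of 2.27 to 5.93 that leaves out the spread between libraries. Replicate 2 alone stood at 2.25 CPM, while replicates 1 and 3 stood at 0.548 and 0.587 CPM, just above the highest control at 0.424. Without replicate 2 the log2 fold change was 0.82.

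Thus all 7 genes stood above every Tespa1+/+ library after 5-FU, beside 17.4% of all 17239 genes tested, a count that the choice of the genes fixes. All 7 passed the filter on low counts, and they did so through the Tespa1-/- libraries, where they are high. Together they took 0.0649% to 0.0689% of all counts in the Tespa1-/- libraries after 5-FU.

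**Figure D1:**
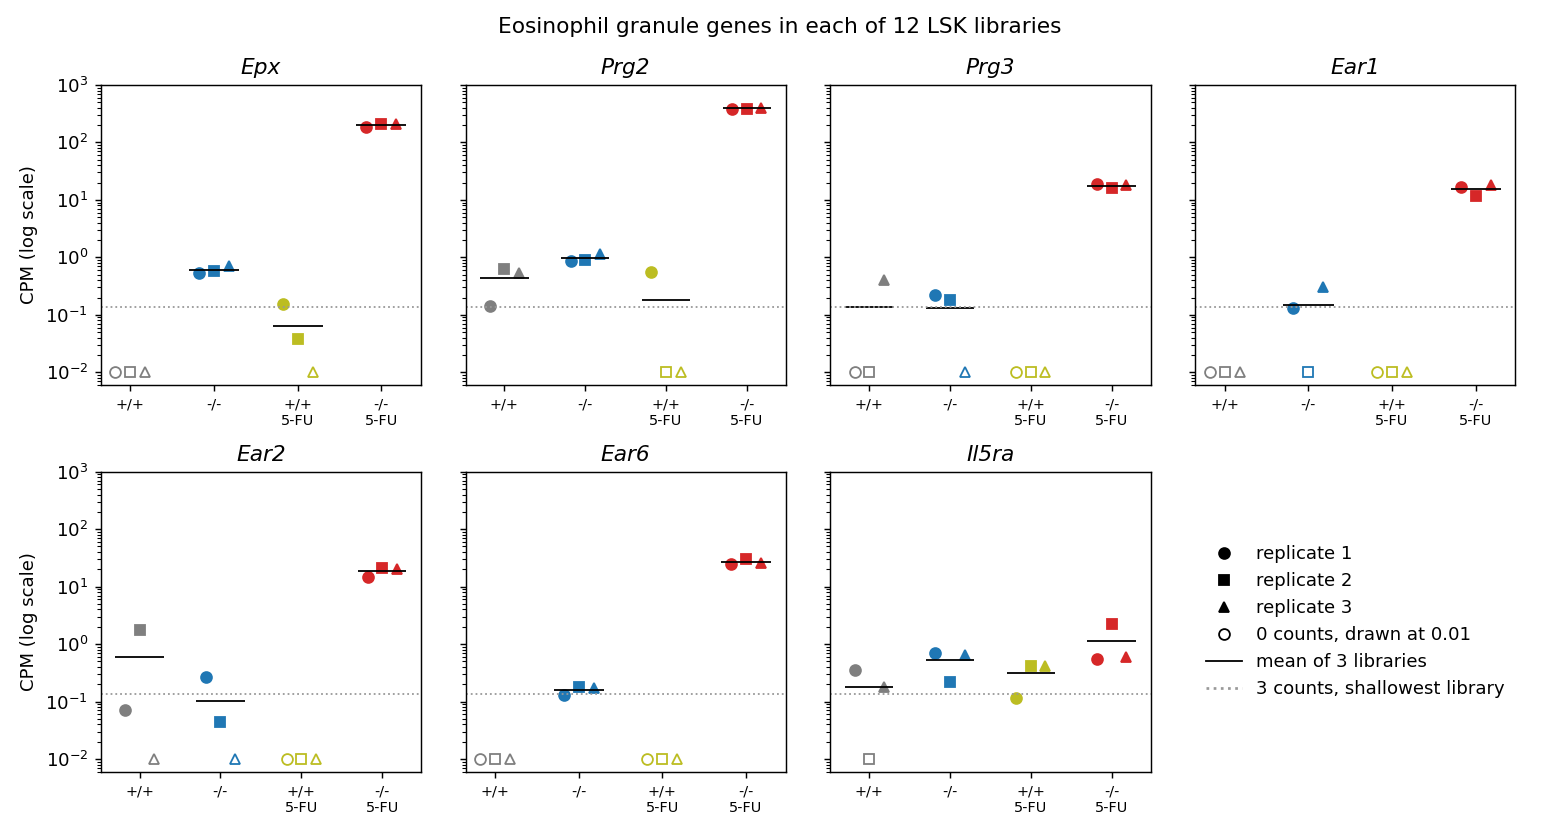
Level of each of the 7 genes (CPM, log axis) in each of the 12 libraries, grouped as untreated and day 9 after 5-FU for each genotype, with bars at group means, open symbols for 0 counts and a dotted line at 3 counts in the shallowest library. The 3 Tespa1-/- libraries after 5-FU stand alone at 186 CPM or more for Epx and 385 CPM or more for Prg2, while Il5ra reaches 2.25 CPM in 1 library only.

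Since longer genes collect more reads, levels of different genes were compared in FPKM (counts scaled by gene length and library depth, as deposited), in Tespa1-/- cells after 5-FU. Prg2 led with 466 ± 10.6 FPKM and ranked 107 to 116 among all genes of its library. Epx followed at 70.0 ± 4.67 FPKM, with a rank of 596 to 660. Ear2 came next at 25.7 ± 4.75 FPKM, and its lowest library lay above the highest of Ear6. Ear6 at 16.8 ± 1.5, Prg3 at 16.0 ± 1.42 and Ear1 at 12.6 ± 2.98 FPKM followed. The range of Prg3 overlapped those of both Ear6 and Ear1, whereas every Ear6 library lay above every Ear1 library. Il5ra was last at 0.186 ± 0.160 FPKM. Prg2 alone made up 76.7% of the summed FPKM of the 7 genes, and Epx 11.5%.

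**Figure D2:**
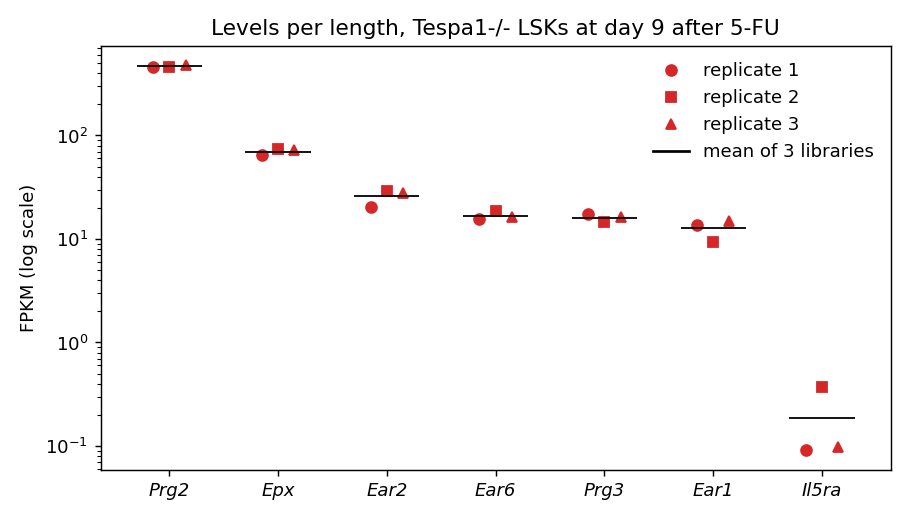
Level per length (FPKM, log axis) of the 7 genes in the 3 Tespa1-/- libraries at day 9 after 5-FU, with bars at the means. Prg2 lies at 458 FPKM or more in every library, and the range of Prg3 meets those of Ear6 and Ear1, while every Ear6 library lies above every Ear1 library.

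The spread between the 3 Tespa1-/- libraries after 5-FU differed between genes. It was smallest for Prg2, with a coefficient of variation of 1.95% beside 1.01% from counting alone, and was 6.65% for Epx. It was 23.4% for Ear1 and 18.4% for Ear2, where counting alone gives 5.07% and 4.65%. Ear1 was lowest and Ear2 highest in replicate 2, and the sum of both varied less, by 11%. Il5ra varied by 86%, beside 18.7% from counting. The ratio of Prg2 to Epx counts was 2.09, 1.82 and 1.95 in the 3 libraries.

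In untreated LSKs, no library held more than 39 counts of any of the 7 genes, and Tespa1-/- libraries held more counts of some of them. Epx had 12, 13 and 16 counts in Tespa1-/- and 0 in each Tespa1+/+ library, at 0.601 ± 0.0884 CPM at least 4.42-fold above the limit. Prg2 had 20, 20 and 26 counts against 4, 14 and 12, a log2 fold change of 1.16 (SE 0.66), which ran from 0.73 without Tespa1+/+ replicate 1 to 1.51 without Tespa1+/+ replicate 2. Ear6 had 3, 4 and 4 counts against 0. These 3 genes did not overlap between genotypes (3 of 7, beside 12.4% of the 17055 genes tested). Ear6 lay at the limit, with a bound of 1.19-fold. Only Epx and Prg2 passed the filter on low counts, and the 12.4% covers only genes that passed it. The untreated Tespa1-/- libraries were also those with a count on the most genes, and the part of this in the small differences was not tested.

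The other 4 genes overlapped between the untreated genotypes. Prg3 had 5, 4 and 0 counts in Tespa1-/- and 0, 0 and 9 in Tespa1+/+ libraries, and Ear1 had 3, 0 and 7 against 0 in each. Ear2 had 6, 1 and 0 counts against 2, 39 and 0, so that 39 of its 41 Tespa1+/+ counts came from replicate 2. Il5ra had 16, 5 and 15 counts against 10, 0 and 4, a ratio of summed counts of 2.74. Its counting interval, 1.44 to 5.50, leaves out the spread between libraries. The ratio of Prg2 to Epx counts in the untreated Tespa1-/- libraries was 1.54 to 1.67, with 12 to 26 counts of each gene behind it. Mean levels of the 6 granule genes in these libraries were 0.247% to 0.936% of those in Tespa1-/- cells after 5-FU.

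Within Tespa1-/- LSKs, levels of the 6 granule genes were far higher after 5-FU than in untreated cells. The log2 fold change was 8.36 (SE 0.11) for Epx, 8.64 (SE 0.09) for Prg2 and 7.00 (SE 0.44) for Prg3. For the ribonucleases it was 6.67 (SE 0.52) for Ear1, 7.41 (SE 0.52) for Ear2 and 7.33 (SE 0.22) for Ear6. These 6 of 7 genes did not overlap between the groups, beside 20.3% of the 17228 genes tested. Leaving out 1 untreated library at a time moved Prg3 between 6.42 without replicate 3 and 7.55 without replicate 1, as it rests on 9 untreated counts. Ear1 kept 3 untreated counts without replicate 3 and Ear2 kept 1 without replicate 1, too few for a fold. Il5ra overlapped, with a log2 fold change of 1.08 (SE 0.73) that was 0.10 without replicate 2 of the treated group.

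Within Tespa1+/+ LSKs, no such rise was seen. Of the 7 genes, 0 stood above the untreated libraries after 5-FU without overlap, beside 14% of the 17002 genes tested, and only Prg2 passed the filter. Prg2 had 14, 0 and 0 counts after 5-FU and 4, 14 and 12 before, a log2 fold change of -1.22 (SE 1.43) that was -0.65 without the treated replicate 2. Without the treated replicate 1, the group after 5-FU had 0 Prg2 counts, and no fold is given. Ear1 and Ear6 had 0 counts in all 6 libraries, which allows up to 3 counts in each. Epx had 0 counts before and 5 after, and Il5ra had 14 before and 24 after, with overlapping libraries. Ear2 went from 41 counts, of which 39 were in 1 library, to 0, and Prg3 from 9 counts in 1 library to 0. The comparisons share groups, so the Tespa1-/- libraries after 5-FU enter both the genotype contrast and the treatment contrast.

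Other genes of the eosinophil lineage were tested in the same fits across all genes, by the quasi-likelihood test of edgeR, adjusted after Benjamini and Hochberg. The list was chosen with earlier results of these data known, so its calls and median beside those of all genes are a description. It has 53 genes, of which 44 are in the table. After 5-FU, 35 of them passed the filter, and 14 were higher and 2 lower in Tespa1-/- cells at an adjusted p below 0.05, beside 7.34% and 5.78% of all genes tested. The median log2 fold change of the 35 was 0.36, beside -0.01 for all genes. Leaving out 1 library or changing the fit gave 14 to 16 calls, and a fold change above 1.5 gave 13. With at least 10 counts required in every library, 12 were higher and 3 lower.

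Among called genes, the largest rises were in Alox15, Cebpe and Il1rl1. Alox15, a lipoxygenase that forms lipid mediators in eosinophils and macrophages, had 404, 256 and 228 counts in Tespa1-/- and 0 in each Tespa1+/+ library after 5-FU. That is at least 94.1-fold. Cebpe, a C/EBP factor of late granulocyte development, had 342, 256 and 255 counts against 0, 33 and 13, a log2 fold change of 4.21 (SE 0.74). With 1 library left out, the Cebpe value ran from 3.63 without Tespa1+/+ replicate 1 to 5.40 without Tespa1+/+ replicate 2. Il1rl1, the interleukin-33 receptor of eosinophils, mast cells and basophils, rose from 7.80 ± 1.52 to 20 ± 5.69 CPM (log2 1.35, SE 0.24, edgeR adjusted p = 0.00633). Alox15 and Cebpe passed the filter on low counts only through the Tespa1-/- libraries, where they are high, so no p-value is given for them and their places among the 14 higher genes rest on that group.

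By role, 5 of 13 transcription factors were higher and 1 lower. Besides Cebpe, these were Gata1, the GATA factor of eosinophils, erythroid and mast cells (log2 0.97, edgeR adjusted p = 0.0103), Cebpa (0.67, edgeR adjusted p = 0.0114), Xbp1, a factor of secretory cells (0.64, edgeR adjusted p = 0.00329), and Zfpm1, a GATA1 cofactor (0.61, edgeR adjusted p = 0.00408). Trib1, a pseudokinase that promotes C/EBP alpha decay, was the factor-list gene that fell, from 89.2 ± 1.61 to 66.8 ± 2.51 CPM (log2 -0.42, edgeR adjusted p = 0.00421). Of 8 tested receptor partners and signalling genes, 2 were higher: Csf2ra, the GM-CSF receptor alpha chain (log2 1.2, SE 0.11), and Csf2rb, the beta chain that Il5ra signals through (log2 0.42, SE 0.06). Il5, Il3 and Csf2, the cytokines themselves, were not tested and had 11 counts or fewer in every library.

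Of 7 surface receptors, 3 were higher (Il1rl1, Itgam and Siglecf) and 1 lower. Siglecf, the siglec of mouse eosinophils, rose from 5.74 ± 1.09 to 11.9 ± 1.63 CPM (log2 1.05, SE 0.22). Ccr3, the eotaxin receptor, had 17, 12 and 17 counts against 0, 3 and 0. It was not called, and it too passed the filter only through the Tespa1-/- libraries. Ptgdr2, a further receptor of the list, was not tested, with 0 counts in each Tespa1-/- library and 6, 0 and 0 in Tespa1+/+ libraries. Itga4, an integrin chain, was lower by a small step (log2 -0.13, edgeR adjusted p = 0.0480) that missed the threshold without any 1 of the 6 libraries (adjusted p 0.0900 to 0.126 in edgeR). Of the 6 lipid mediator and granule genes, Alox15, Alox5 (log2 1.29, SE 0.18) and the granule tetraspanin Cd63 (log2 0.76, SE 0.12) were higher. The other 3 were not called. Srgn went from 316 ± 163 to 141 ± 10.7 CPM (log2 -1.17, SE 0.35). Ltc4s had a log2 fold change of -0.93 (SE 0.70) and Alox5ap one of 0.24 (SE 0.14). Mpo, the peroxidase gene on the same stretch of chromosome 11 as Epx, rose from 2164 ± 102 to 3609 ± 214 CPM (log2 0.73, SE 0.05). Lpo, which lies between them, had 0 counts in all 6 libraries. Of the 4 further Ear and RNase2 genes in the table, 0 could be tested.

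**Figure D3:**
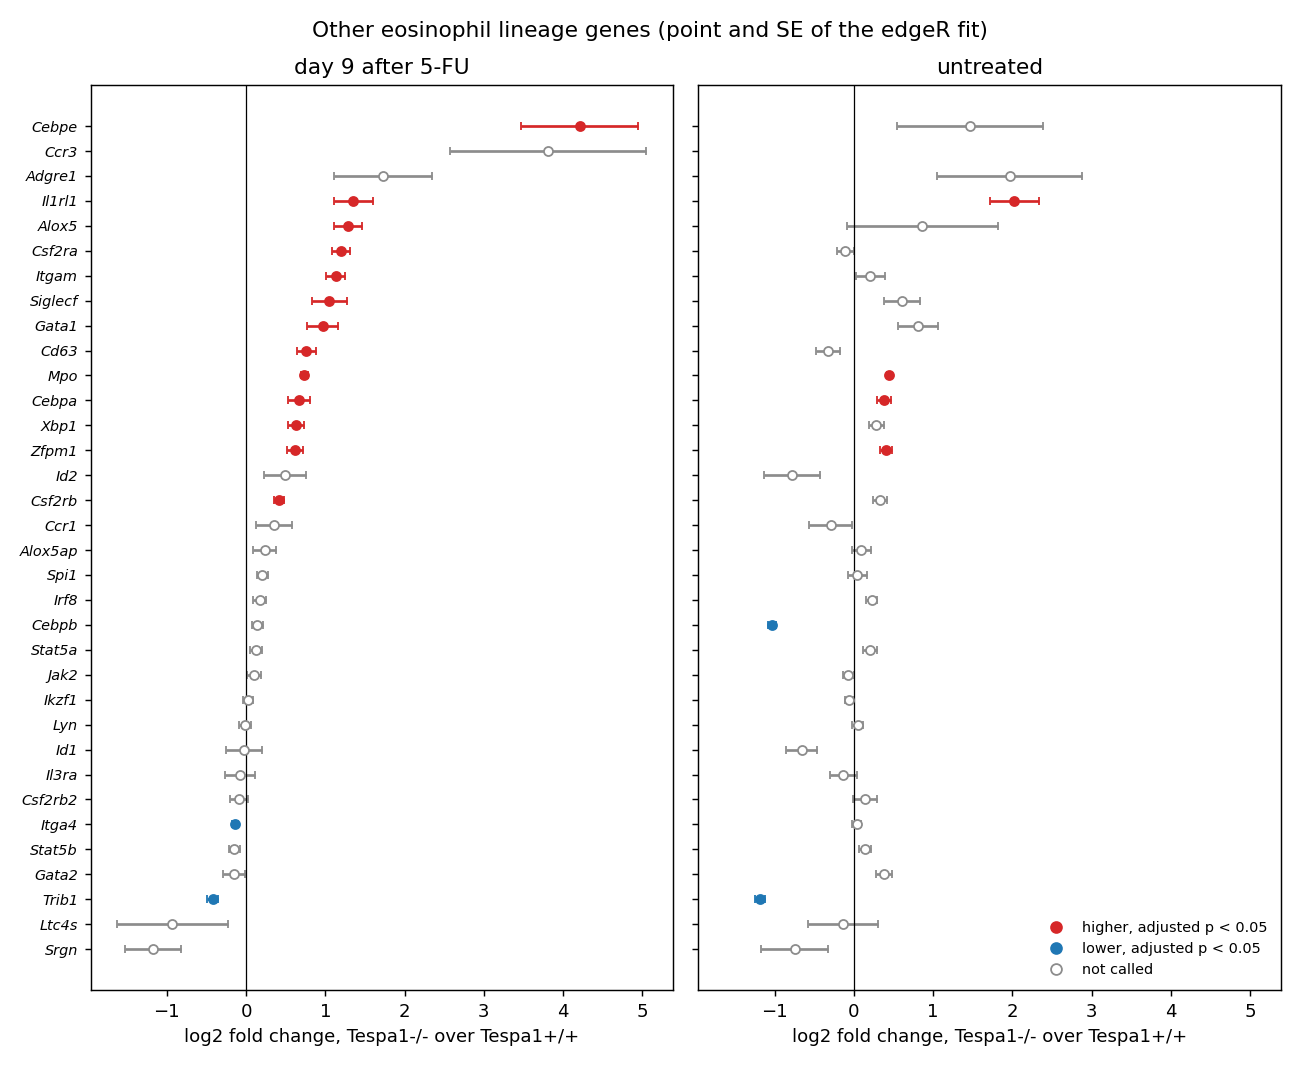
Log2 fold change of Tespa1-/- over Tespa1+/+ (point) with its SE (bar) for the other eosinophil lineage genes at day 9 after 5-FU (left) and untreated (right), filled where the edgeR adjusted p is below 0.05. Cebpe, which passed the filter on low counts only through the Tespa1-/- libraries, stands at 4.21 on the left, Cebpb and Trib1 are the called falls on the right, and Alox15 is not drawn because it had 0 counts in Tespa1+/+ libraries after 5-FU.

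In untreated LSKs, 4 of the 33 lineage genes tested were higher and 2 lower in Tespa1-/- cells, beside 1.64% and 3.59% of all genes. Il1rl1 rose by 2.02 (SE 0.31), Mpo by 0.45 (SE 0.03) and Zfpm1 by 0.41 (SE 0.08) on the log2 scale, and Cebpa was the fourth. The Zfpm1 call was lost when any 1 of 5 libraries was left out (adjusted p 0.0501 to 0.112 in edgeR), and the Cebpa call was lost without Tespa1+/+ replicate 3 and without Tespa1-/- replicate 2 or 3. Trib1 fell by 1.19 (SE 0.06) and Cebpb, an acute-phase C/EBP factor, by 1.03 (SE 0.05). Cebpe was not called.

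Between untreated and 5-FU-treated cells, parts of the list changed in both genotypes. In Tespa1+/+ cells, 9 of 33 were higher and 4 lower (3.77% and 4.18% of all genes), led by Il1rl1 (log2 2.09, SE 0.35), Gata1 (1.73, SE 0.29) and Csf2rb2, a second beta chain (1.34, SE 0.15), with falls of Cebpb (-1.14, SE 0.06), Trib1 (-1.14, SE 0.07) and Irf8 (-0.38, SE 0.07). In Tespa1-/- cells, 18 of 35 were higher and 2 lower (10.7% and 8.64% of all genes). Alox15, which passed the filter through the treated libraries alone, went from 2 to 888 counts (ratio 402, 111 to 3324), while Cebpe rose by 3.15 (SE 0.21) and Alox5 by 3.02 (SE 0.18), and Irf8 fell by 0.44 (SE 0.09) and Trib1 by 0.39 (SE 0.06).

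The log2 genotype difference was shifted upward after 5-FU, relative to untreated cells, for 6 of the 35 lineage genes and downward for 0 (3.02% and 1.99% of the 18696 genes tested for the interaction). These were Csf2ra (log2 difference 1.31, SE 0.14), Cebpb (1.18, SE 0.09), Cd63 (1.09, SE 0.18), Itgam (0.93, SE 0.22), Trib1 (0.77, SE 0.08) and Mpo (0.29, SE 0.06). Cebpb and Trib1 were lower in untreated Tespa1-/- cells, whereas Csf2ra had no call in untreated cells (log2 -0.11, SE 0.10).

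Markers of other blood cells moved with the granule genes. The 10 neutrophil markers summed to 1058 to 1060 CPM in the Tespa1-/- libraries after 5-FU, against 3.66 to 8.42 in Tespa1+/+ libraries after 5-FU, 4.70 to 5.85 in untreated Tespa1-/- and 0.770 to 1.60 in untreated Tespa1+/+ libraries. All 10 were above the limit in every Tespa1-/- library after 5-FU, from Retnlg at 10.6 CPM to S100a9 at 316 CPM, while Fcnb, Cd177 and Retnlg had 0 counts in Tespa1+/+ libraries after 5-FU. The 8 basophil and mast cell markers summed to 128 to 143 CPM against 37.7 to 45.8, with 8 of 8 above the limit. Within this list Cma1 (1.79 against 2.59 CPM) and Tpsb2 (0.763 against 2.03 CPM) had lower means in Tespa1-/- than in Tespa1+/+ cells after 5-FU, while Prss34 had 26.2 against 0.583 CPM. Fcer1a, Cma1 and Tpsb2 were at 0 in both untreated groups. The 8 erythroid markers summed to 419 to 433 CPM against 49.3 to 63.2.

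The 8 monocyte and macrophage markers went both ways, with summed levels of 431 to 460.1 CPM in Tespa1-/- and 343 to 383 CPM in Tespa1+/+ libraries after 5-FU. F13a1 was higher in Tespa1-/- cells (207 against 91.6 CPM), whereas Ccr2 (117 against 139.7 CPM) and Ms4a6c (47.8 against 78.0 CPM) were lower. The 8 LSK identity genes were all detected in every library, and their sum was 744 to 814 CPM in Tespa1-/- libraries after 5-FU, below the 1239 to 1294 CPM of Tespa1+/+ after 5-FU and the 1268 to 1592 CPM of the untreated libraries. Slamf1 of this list did not follow the sum, with 14.2 CPM in Tespa1-/- after 5-FU against 13.6 in Tespa1+/+ after 5-FU, and stood above its untreated levels of 4.10 and 2.96 CPM. Procr, at 6.85 CPM, stood above its untreated levels of 5.03 and 4.28 CPM but had a lower mean than the 9.59 CPM of Tespa1+/+ after 5-FU. Mecom had 32.3 CPM beside untreated levels of 31.5 and 20.4 CPM. It lay without overlap below the 62.3 CPM of Tespa1+/+ after 5-FU. Itgam, which encodes CD11b of the lineage cocktail, rose from 32.4 ± 3.88 to 71.0 ± 6.14 CPM. Ly6g, a Gr-1 antigen gene, stood at 1.24 ± 0.574 CPM in Tespa1-/- after 5-FU and had 0 counts in all untreated libraries. Of the other genes of the lineage cocktail, Cd3e had 0.919 CPM in Tespa1-/- and 0 in Tespa1+/+ cells after 5-FU, and Ptprc, which encodes B220, had 276 against 291 CPM. The part of these cell types, or of cells that passed the sort, in the levels of the granule genes was not tested.

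**Figure D4:**
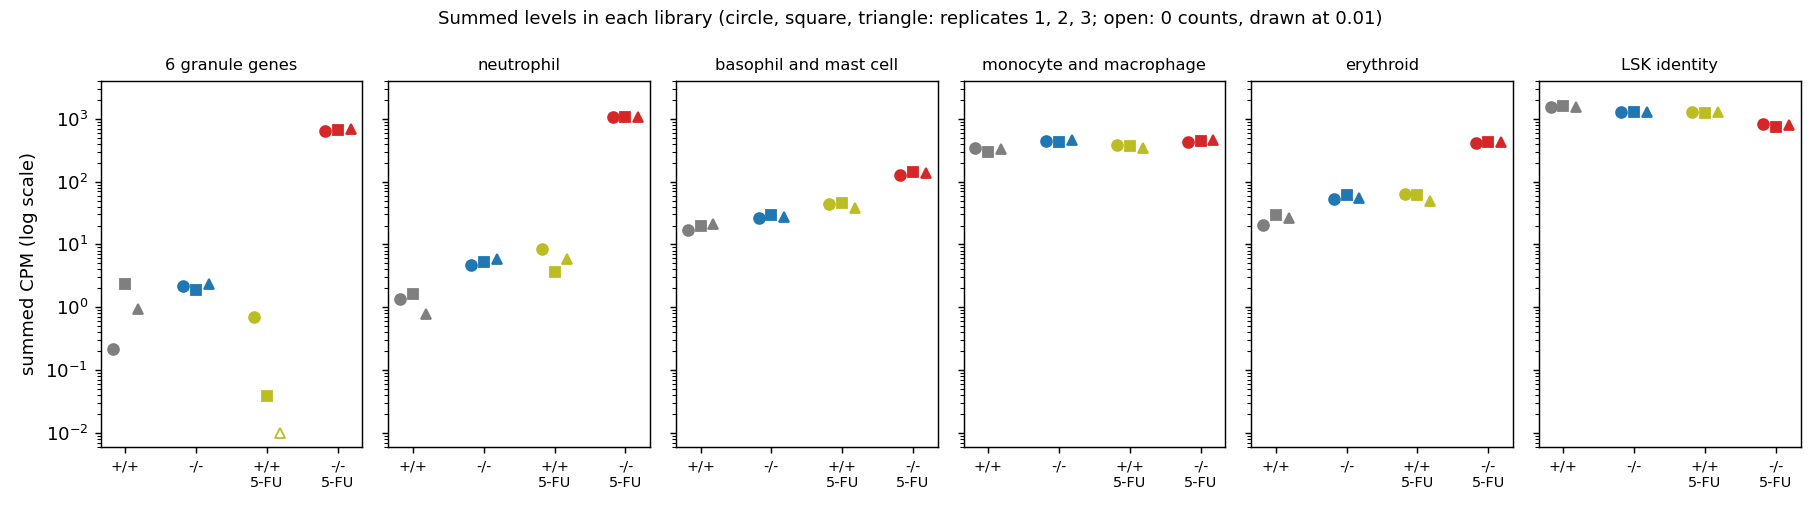
Summed CPM (log axis) of the 6 granule genes without Il5ra and of 5 marker lists in each library, by genotype and treatment. The granule genes (650.2 to 687 CPM) and the neutrophil list (1058 to 1060 CPM) are both highest in the Tespa1-/- libraries after 5-FU, where the LSK identity list is lowest (744 to 814 CPM).

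The genes nearest to each member in pattern were ranked by the root mean square difference of log2(CPM + 0.5) profiles, centred on each gene's mean, over the 12 libraries and 14929 genes. Epx and Prg2 were each other's nearest gene, with a difference of 0.41, followed for both by the neutrophil genes S100a8, S100a9, Camp and Ngp. Prg3 and Ear1 were nearest to Alox15 (0.32 and 0.30), and each other, Ear6, Gzma and Retnlg filled their next places. Ear6 was nearest to Cd177 (0.22), then Slfn4, Fcnb, Prg3 and Ear1. Ear2 was nearest to Mmp9 (0.58), Prom1, Fcnb, Alox15 and Gzma. All profiles come from the same 12 libraries, and in these genes 1 group of 3 libraries stood far above the rest. The distance therefore depends largely on the level in that group, which was known when the members were chosen. Alox15, Gzma and Retnlg stood at 11.7, 10.8 and 10.6 CPM there, beside 17.6 for Prg3 and 15.6 for Ear1. Epx, at 201 CPM, ranked 155 among the genes near Prg3. Of the 35 nearest genes of the 7 members, 19 were kept with a pseudocount of 2 CPM and 12 with a Pearson correlation as the measure.

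Il5ra stood apart from the other 6. Its nearest genes were Alkbh4 (0.21), Gm12919, Btbd19, Foxm1 and Ctns, none of them a granule gene. Among 14929 genes, Epx ranked 14925 and Prg2 14927 in nearness to Il5ra. In the other direction, Il5ra ranked 597 among the genes near Epx and 643 among those near Prg2. It had 58 counts or fewer in every library.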

How the data were processed

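RNA was measured in 12 LSK libraries, 3 in each of 4 groups read from the labels. The authors deposited 1 table with whole-number counts of reads per gene, without normalization, and FPKM values made from the same counts. Gene lengths worked back from deposited FPKM and counts were the same in all libraries to within 4.34e-06 of their size (8529 genes with at least 200 counts). The submitters' processing notes name CASAVA 1.8, HISAT2, StringTie, edgeR and GRCm38. A stranded poly-A kit was used, and how reads were counted, strand included, is not given in the sources used here. RNA-seq of irradiated mice was not analysed here.

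Counts were fitted in R 4.3.3 with edgeR 4.0.16 (filterByExpr with a minimum count of 10, TMM factors, glmQLFit and the quasi-likelihood test, two-sided, Benjamini-Hochberg adjustment over all genes tested), on the 6 libraries of each comparison and on all 12 for the interaction. CPM used TMM factors over the 12 libraries. The fits were tested on simulated data. Folds against 0 counts were computed against the highest limit of 3 counts among the libraries of that group, and ratios with few counts have exact 95% Poisson intervals. Both cover counting error only. Alternatives were DESeq2 1.42.0, other scalings and filters, all 12 libraries in 1 fit, a block on replicate number, omission of single libraries, a fold change above 1.5, all Ear genes summed, a pseudocount of 2 CPM and a Pearson correlation. Promoters were aligned with Biopython 1.88, and tables and plots were made in Python 3.11 with SciPy 1.17.1, NumPy 2.4.6, pandas 2.3.3 and matplotlib 3.10.9.

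The members and gene lists were chosen with earlier results of these data known. Named were the 7 members, in each comparison up to 3 called lineage genes with the largest rise and the largest fall at a mean of at least 1 CPM, lineage factors and receptor partners by counts, the 5 genes most like each member, and the extremes of marker lists. Names beyond this rule (Xbp1, Siglecf, Ccr3, Alox5, Mpo and others given with values, Ear-ps9, Ear-ps2, Ear10, Ly6g, Itgam, Cma1, Prss34, Ccr2, Ms4a6c, Slamf1, Procr, Mecom, Ptprc and Cd3e) were chosen after their values were seen.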

Additional observations from a re-analysis of the deposited data

Results flagged for a closer look

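The genotype effect on 3 other eosinophil lineage genes differed between treatments in the edgeR interaction test across 12 libraries. The log2 difference of the effects (after 5-FU minus untreated) was 1.31 (SE 0.14) for Csf2ra, 1.18 (SE 0.09) for Cebpb and 1.09 (SE 0.18) for Cd63. After 5-FU, Csf2ra had 22.9 ± 2.30 CPM in Tespa1+/+ against 52.5 ± 1.70 in Tespa1-/- cells, and untreated it had 28 ± 0.596 against 25.9 ± 2.11. Untreated cells had 203 ± 7.29 CPM of Cebpb in Tespa1+/+ against 99.4 ± 1.67 in Tespa1-/-, and after 5-FU the levels were 91.8 ± 2.42 and 101.5 ± 6.94. Cd63 went from a genotype effect of -0.33 (SE 0.15) untreated to 0.76 (SE 0.12) after 5-FU.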

How the results depend on the processing

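The groups hold 3 libraries, so folds of genes with under about 10 counts rest on counting error and on single libraries. Among refitted member folds, 142 moved by less than the replicate spread, 31 by more, and 0 changed direction. Among refitted counts of lineage genes, 79 stayed within 1.5 times of the value reported and 1 did not, that for untreated genotypes at a fold change above 1.5 (3 genes in place of 6). The lineage genes with the largest rises and falls kept their direction and call in 265 refits and lost the call in 14, all of Itga4 after 5-FU or untreated Zfpm1. The nearest genes of the members shared 19 of 35 names with a pseudocount of 2 CPM and 12 of 35 with a Pearson correlation.

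Counts over all genes moved more. For untreated genotypes, 892 genes were called, 1427 with DESeq2, 428 at a fold change above 1.5 and 338 to 808 without 1 library. For 5-FU in Tespa1+/+, 1352 were called, 2062 with DESeq2, 2114 with all 12 libraries in 1 fit, 753 at a fold change above 1.5 and 783 to 1102 without 1 library. For the interaction, 936 were called, 1535 with DESeq2, 601 at an adjusted p and a fold change above 1.5, 1942 at an unadjusted p and that fold change, and 573 to 862 without 1 library. Above a fold change of 1.5, the 2261 genes called for genotype after 5-FU became 1204, and the 3338 for 5-FU in Tespa1-/- became 1735.

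Replicate numbers did not pair the libraries: deviations from group means of same-numbered libraries correlated at -0.065 to 0.027. With the replicate block, lineage calls were 15, 4, 11, 20 and 6 in place of 16, 6, 13, 20 and 6, and the calls for untreated genotypes over all genes fell to 454.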
